A study of Danio rerio with 46 samples.

Results

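A set of 10 enzymes of fatty acid, triglyceride and cholesterol synthesis was followed through zebrafish gonad and trunk arrays. The enzymes were chosen by name: acaca, fasn, scd, dgat1a, dgat2, hmgcra, hmgcs1, sqlea, cyp51 and dhcr7. A row of that name was found for 9 of the 10 among 31475 rows, and sqlea was passed over because the table does not use its current symbol. Fish were held at 36 °C or, as controls, at 28 °C between 18 and 32 days post fertilization (dpf), and both groups then lived at 28 °C. Trunks of juveniles of unknown sex were taken at 37 dpf, 10 after heat and 8 controls. Adult gonads were taken at 90 dpf: 10 testes after heat and 10 control testes, and 4 ovaries after heat and 4 control ovaries. Each of the 46 arrays was labelled as a separate biological replicate, and the labels give no strain. A trunk holds muscle, liver, gut, nerve and gonad together, so in these bulk samples fewer cells of a type and less RNA per cell cannot be told apart.

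Fatty acids are built in the cytosol from acetyl-CoA. Acaca makes malonyl-CoA from it, Fasn assembles the saturated chain, and Scd, a stearoyl-CoA desaturase, adds a double bond. Dgat1a and Dgat2 each attach the last fatty acid to make triglyceride, the storage fat of adipose tissue, liver and eggs. Cholesterol is made from the same acetyl-CoA through mevalonate: Hmgcs1 and Hmgcra act early, squalene epoxidase (sqlea) and Cyp51 in the middle and Dhcr7 at the end. In mammals the SREBP transcription factors, encoded by the relatives of srebf1 and srebf2, raise the enzymes of both branches when sterols are scarce.

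Values are log2 signals, on which a difference of 1 is a doubling of signal. Single-colour array signals were not set against each other between genes. The upper quartile of an array was 10.64 to 10.72 in gonads and 10.90 to 10.95 in trunks, so levels across trunks and gonads are given without a test. The defining markers matched the labelled tissues in general: the sperm-tail gene tekt1 averaged 14.25 ± 0.22 in control testes (SD, n = 10) and 7.93 ± 0.47 in control ovaries (SD, n = 4). The egg coat gene zp3 averaged 7.81 ± 1.04 in control testes (SD, n = 10) and 13.08 ± 0.21 in control ovaries (SD, n = 4). Some arrays stood apart. Heat-exposed ovaries 2 and 4 had testis germ cell list means of 11.91 and 12.18, against 9.0 to 9.36 in control ovaries. Oocyte markers were high in some control trunks and on average far lower after heat: 21 of 23 fell, where 5.96% of all rows fell. The log2 of their summed signal was 11.96 to 14.44 in heat-exposed trunks and 13.85 to 18.33 in control trunks. In control trunks 2 and 4 the oocyte gene gdf9 was 5.71 and 5.70, within the 4.76 to 5.90 of heat-exposed trunks.

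The plot of every array by group shows how far the enzymes differed between juvenile trunks and adult gonads. Age and tissue changed together there, so their parts cannot be told apart. The first cholesterol enzyme, hmgcs1, averaged 11.73 ± 0.75 in heat-exposed trunks (n = 10) and 11.88 ± 0.47 in control trunks (n = 8). Its means in the 4 gonad groups were 7.27 to 7.35, a span smaller than the SD of heat-exposed testes, 0.34, so the gonad groups had no order beyond their spread. The rate-limiting reductase hmgcra had means of 14.41 and 14.89 in heat-exposed and control trunks and of 9.01 to 9.78 in the gonads, where single testes ranged from 6.97 to 11.25. The triglyceride enzyme dgat2 ran from trunks (11.93 after heat, 12.64 in controls) through testes (8.70 after heat, 9.49 in controls) to ovaries (7.56 after heat, 6.22 in controls). In that order the heat-exposed trunks stood below the control trunks by more than the SD of either group, while neighbouring gonad means lay within the larger of their SDs. The lowest means of cyp51 were also in ovaries, at 10.08 after heat and 9.19 in controls. For acaca the span of the 6 group means was small, with the lowest mean in heat-exposed trunks (12.28) and the highest in control trunks (13.39).

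**Figure D1:**
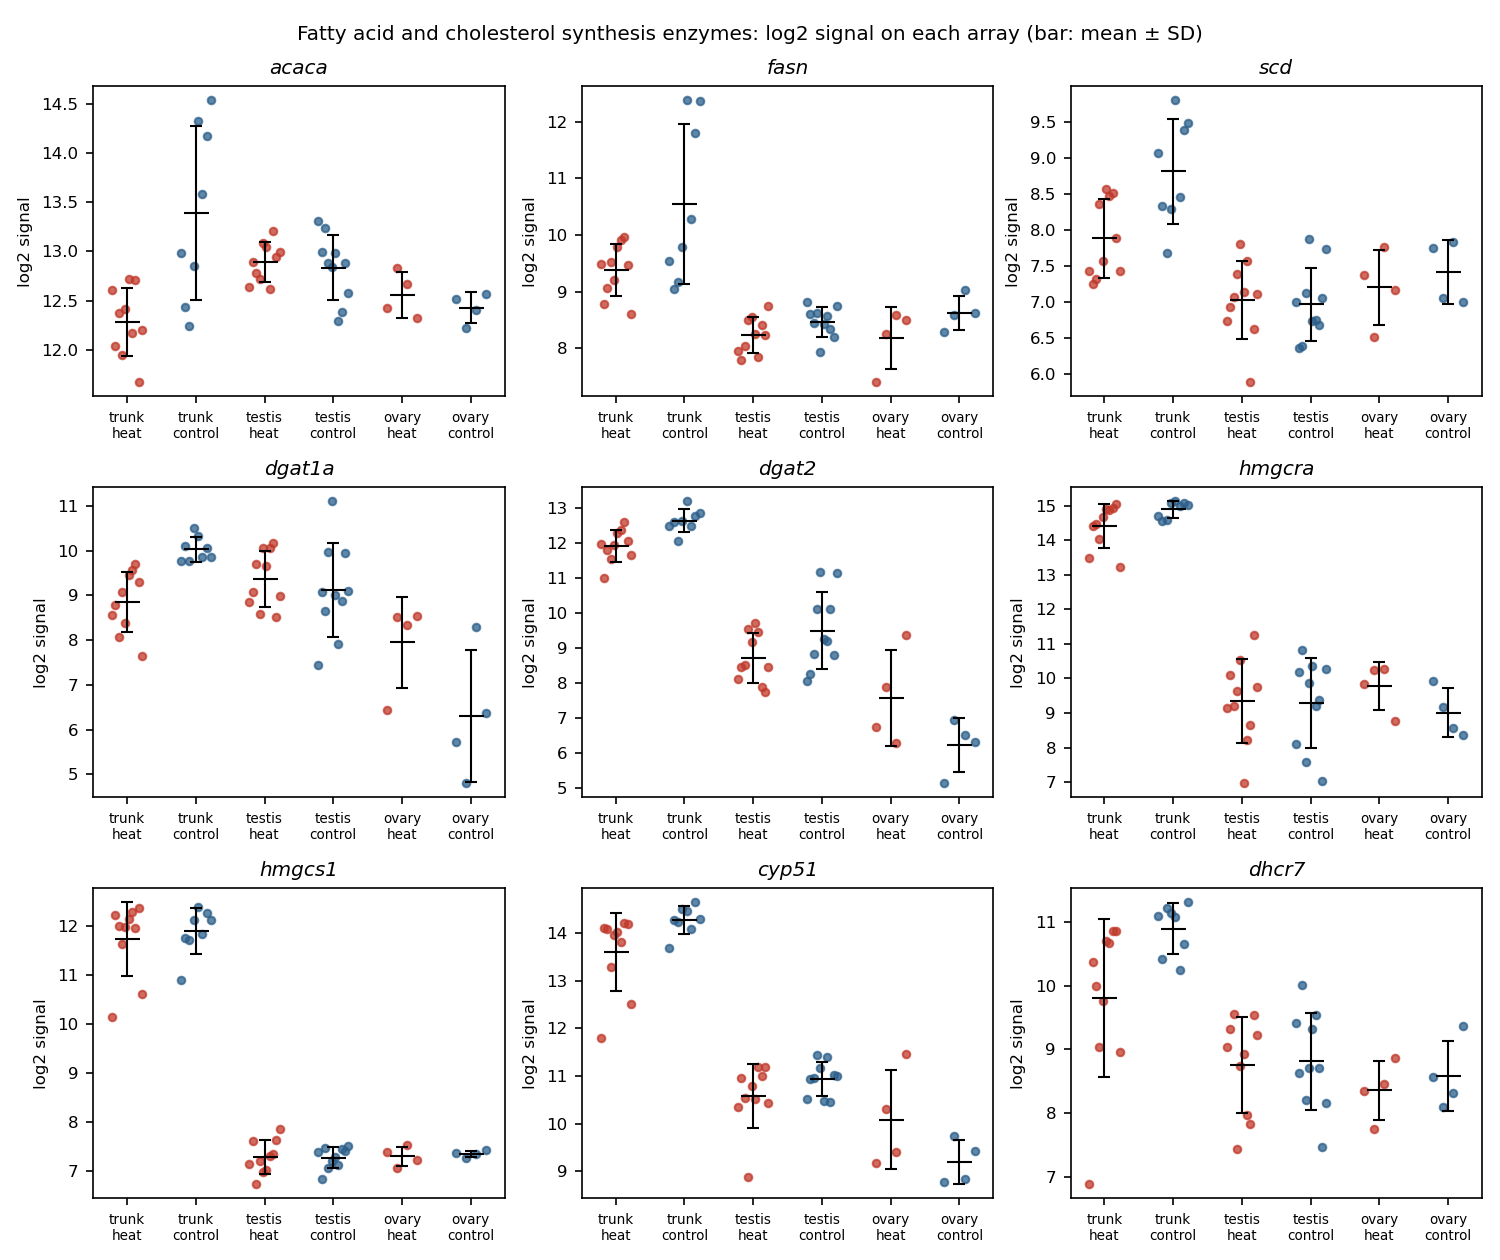
Log2 signal of the 9 enzymes on each of the 46 arrays (y axis, own scale per gene) in 6 groups (x axis), with each heat-exposed group (red) left of its control (blue) and bars for the mean ± SD. Control trunks spread widely in acaca and fasn, 2 heat-exposed trunks sit low in hmgcs1 and cyp51, and hmgcs1 lies near 7.3 in every gonad group.

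In juvenile trunks 5 days after the exposure ended, 4 of the 5 fatty acid and triglyceride enzymes were lower after heat and fasn did not pass. Of the 9 enzymes 4 fell, acaca, scd, dgat1a and dgat2, by 1.64-fold to 2.26-fold, and none rose (limma, adjusted p under 0.05 over all rows). Across all rows 5.96% fell and 8.59% rose in the same fit, 14.5% in either direction. The median difference of the 9 enzymes was -0.93 on the log2 scale, against 0.04 over all rows.

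Among the fatty acid enzymes, acaca had a lowest, median and highest value of 11.67, 12.28 and 12.72 in the 10 heat-exposed trunks. In the 8 control trunks these values were 12.24, 13.28 and 14.54. The groups overlapped at the low end of the controls, while 6 control trunks lay above every heat-exposed trunk. The difference was -1.11 (SE 0.29, 95% interval -1.71 to -0.50, limma adjusted p = 0.0152). For scd the values were 7.24, 7.73 and 8.57 in heat-exposed trunks and 7.67, 8.76 and 9.80 in control trunks. The groups overlapped, and scd fell by 0.93 (SE 0.29, limma adjusted p = 0.0347). The scd call was lost when any of 9 single trunks was left out. It was also lost with the replicate number as a block (-0.88, limma adjusted p = 0.0616). The labels only count replicates within a group and name no pairs, so the block fit decides nothing about scd.

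Fasn, the synthase itself, had values of 8.60, 9.47 and 9.97 (lowest, median, highest) in heat-exposed trunks and of 9.04, 10.03 and 12.38 in control trunks. Its mean difference of -1.17 was about as large as that of acaca, but with a wider error (SE 0.44, 95% interval -2.09 to -0.24) it did not pass (limma adjusted p = 0.0842). The spread lay in the controls, whose SD was 1.42 against 0.46 in heat-exposed trunks. Without control trunk 2 or control trunk 3, both low in fasn, it passed, with adjusted p of 0.0411 and 0.0492.

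The triglyceride enzyme dgat1a separated the groups. It had values of 7.65, 8.93 and 9.70 (lowest, median, highest) in heat-exposed trunks and of 9.76, 9.96 and 10.51 in control trunks, with no overlap. Of all rows 0.499% were lower with no overlap. The difference was -1.18 (SE 0.25, 95% interval -1.69 to -0.66, limma adjusted p = 0.00404). For dgat2 the values were 11.01, 11.96 and 12.59 in heat-exposed trunks and 12.07, 12.61 and 13.20 in control trunks. These groups overlapped, and dgat2 fell by 0.71 (SE 0.19, limma adjusted p = 0.0169).

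The 4 cholesterol enzymes did not pass the test, although each mean was lower after heat. The differences were -0.49 for hmgcra (95% interval -0.96 to -0.01, limma adjusted p = 0.165), -0.67 for cyp51 (-1.28 to -0.07, adjusted p = 0.13) and -1.09 for dhcr7 (-1.99 to -0.19, adjusted p = 0.0975). For hmgcs1 it was -0.16, with an interval of -0.76 to 0.45. Heat-exposed trunks spread more than controls in each: the SD of dhcr7 was 1.25 after heat and 0.40 in controls, and that of cyp51 was 0.82 after heat and 0.30 in controls.

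**Figure D2:**
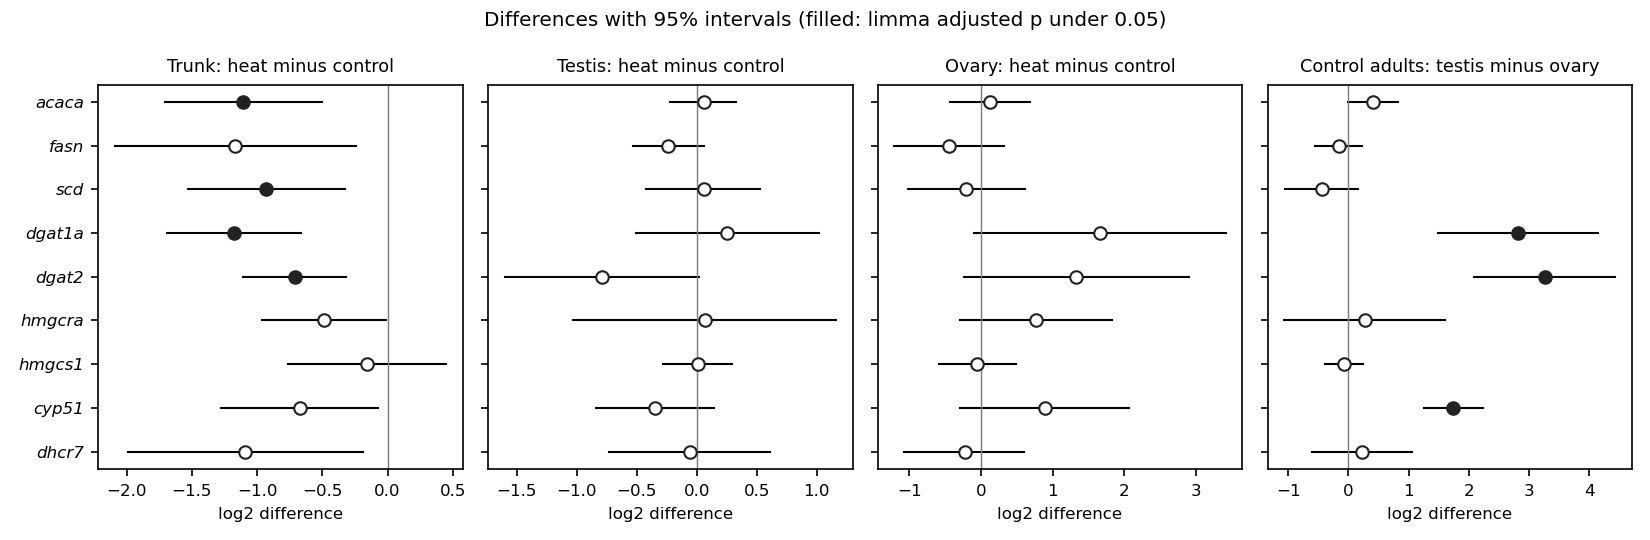
Log2 difference (x axis, own scale per panel) of each enzyme (y axis) with its 95% interval, in trunk, testis and ovary (heat minus control) and in control adults (testis minus ovary). Filled points passed limma's adjusted p of 0.05: 4 enzymes in trunk, none for heat in either gonad, and 3 between the gonads.

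Marker genes of other tissues moved in the same trunks. Besides the oocyte list, 15 of 26 neural markers rose and 1 fell after heat, with a log2 summed signal of 16.36 to 17.47 in heat-exposed trunks and 15.997 to 16.68 in controls. The neuronal gene elavl3 averaged 11.24 ± 1.04 in heat-exposed trunks (SD, n = 10) and 9.65 ± 0.59 in controls (SD, n = 8). Liver markers, from the organ best known for lipid synthesis, were level: 1 of 27 rose, 1 fell, and the log2 summed signal was 18.90 to 19.20 after heat and 18.96 to 19.12 in controls. With the liver list mean as a covariate, a setting not planned beforehand, all 4 calls stayed. That mean was 13.09 after heat and 13.12 in controls, so adding it could hardly remove a difference between the groups. The fit therefore cannot decide the part of liver. When the mean of the oocyte list, which differs between the groups, was added to the fit, 0 of the 9 passed and 171 of all rows did. In that fit the differences were -0.12 for acaca, -0.41 for scd, -1.71 for dgat1a (limma adjusted p = 0.0876) and -0.73 for dgat2 (adjusted p = 0.341), so the last pair lost their calls with differences no smaller than before. With the neural list mean, which also differs between the groups, 0 of the 9 and 738 of all rows passed, and the differences were -0.72 for acaca, -0.10 for scd, -0.45 for dgat1a and -0.37 for dgat2. Whether these tissues have a part in the enzyme differences was not tested beyond these fits.

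A few trunks lay far from the rest in the sterol enzymes or in acaca, fasn and scd. The arrays below were singled out after their values were seen. They are described, and fits without them are no independent test. The lowest trunks in the sterol branch were heat-exposed trunks 1 and 10. Their hmgcs1 values were 10.13 and 10.60, against 11.63 to 12.36 in the other 8 heat-exposed trunks. Their dhcr7 values were 6.88 and 8.95, against 9.03 to 10.85 in the other 8. For cyp51 they had 11.81 and 12.52, against 13.30 to 14.23, and for hmgcra 13.49 and 13.23, against 14.02 to 15.05. In each of these 4 genes both arrays lay below all 16 other trunks, controls included.

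The rest of the sterol branch showed the same trunks at the bottom. Of 22 further mevalonate and sterol genes, 13 (59.1%) had trunks 1 and 10 below all other trunks, against 4.91% of all rows. Squalene epoxidase (sqlea, listed under its older name zgc:171801) had 10.26 and 11.55 in trunks 1 and 10 and 12.94 to 14.01 in the other heat-exposed trunks. Acaca was 12.61 and 12.20 and scd 7.42 and 7.43 in trunks 1 and 10, within the range of the other 8. Fasn was 9.48 in trunk 1, within that range, and 8.60 in trunk 10, the lowest of all trunks. Dgat1a was likewise 8.56 in trunk 1, within the range of the other 8, and 7.65 in trunk 10, the lowest of all trunks. Trunks 1 and 10 were the highest of the trunks in the neural list, at 11.97 and 11.63, against 10.59 to 11.54 in other heat-exposed trunks, and the part of that in the sterol values was not tested. Trunks 1 and 10 were picked for low sterol values, so leaving them out had to raise the sterol means of the heat-exposed trunks. Without trunks 1 and 10 the differences were 0.19 for hmgcs1 and -0.99 for dgat1a (limma adjusted p = 0.00906). Scd no longer passed (-0.82, adjusted p = 0.0947).

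Other arrays stood out in the fatty acid branch. Control trunks 5, 7 and 8 had fasn at 12.38, 11.80 and 12.37, while the other 5 control trunks had 9.04 to 10.28. They were the 3 highest control trunks in acaca (14.33, 14.17 and 14.54) and scd (9.80, 9.39 and 9.48) as well. In cyp51 they did not stand apart, at 14.47, 14.66 and 14.30, against 13.69 to 14.51 in the other controls. In hmgcs1 they were the 3 highest controls, at 12.38, 12.27 and 12.12, just above the next, at 12.11. These 3 arrays were picked for high fasn, acaca and scd, and were the highest controls in dgat2 too. Leaving them out therefore had to shrink those differences. Without them acaca differed by -0.54 (limma adjusted p = 0.172), scd by -0.48 (0.339), fasn by -0.18 (0.727) and dgat2 by -0.53 (0.169). The calls of acaca, scd and dgat2 were thus lost in a fit that cannot decide what heat did. Dgat1a, in which the 3 arrays did not stand apart, differed by -1.15, with an adjusted p of 0.0441.

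The 4 control trunks highest in fasn came in the same order in plin1, which codes for perilipin of fat cell droplets. Its values were 11.74, 8.71 and 10.93 in control trunks 5, 7 and 8, then 8.68 in control trunk 6 and 4.85 to 7.35 in the other 4. Among heat-exposed trunks, plin1 was 8.28, 8.15 and 8.03 in trunks 6, 7 and 8 and 5.10 to 6.33 in the other 7. These 3 trunks also held the highest heat-exposed values of fasn (9.79, 9.91 and 9.97), of scd, of dgat1a (9.45, 9.56 and 9.70) and of dgat2 (12.28, 12.38 and 12.59). In acaca trunks 6 and 8 were the highest (12.72 and 12.71), but trunk 7 was not, at 12.17. The same 3 trunks were the lowest heat-exposed trunks in the neuronal gene elavl3, at 9.84, 10.38 and 10.08, against 10.70 to 12.74 in the others. The adipose list as a whole had nearly the same range in both groups, with a log2 summed signal of 15.79 to 16.01 after heat and 15.78 to 16.01 in controls, and 1 of its 13 rows fell. Control trunks 5, 7 and 8 differed from the other 5 by a median of -0.03 over all rows, of which 3.62% were highest in all 3. Over the 13 adipose rows the median was also -0.03, with 2 of the 13 (15.4%) highest in all 3. The plin1 difference, 3.80, was thus far from the median of its list. Over the 23 oocyte rows the median was 2.11, with 7 (30.4%) highest in all 3. The oocyte list means were 12.80, 12.46 and 12.47 in control trunks 5, 7 and 8 and 8.42 to 10.65 in control trunks 2, 4 and 6. Control trunks 1 and 3 were also high in oocyte markers, at 12.57 and 12.20, and had fasn at 9.54 and 9.17. The part of fat cells, oocytes or nerve in these values was not tested.

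**Figure D3:**
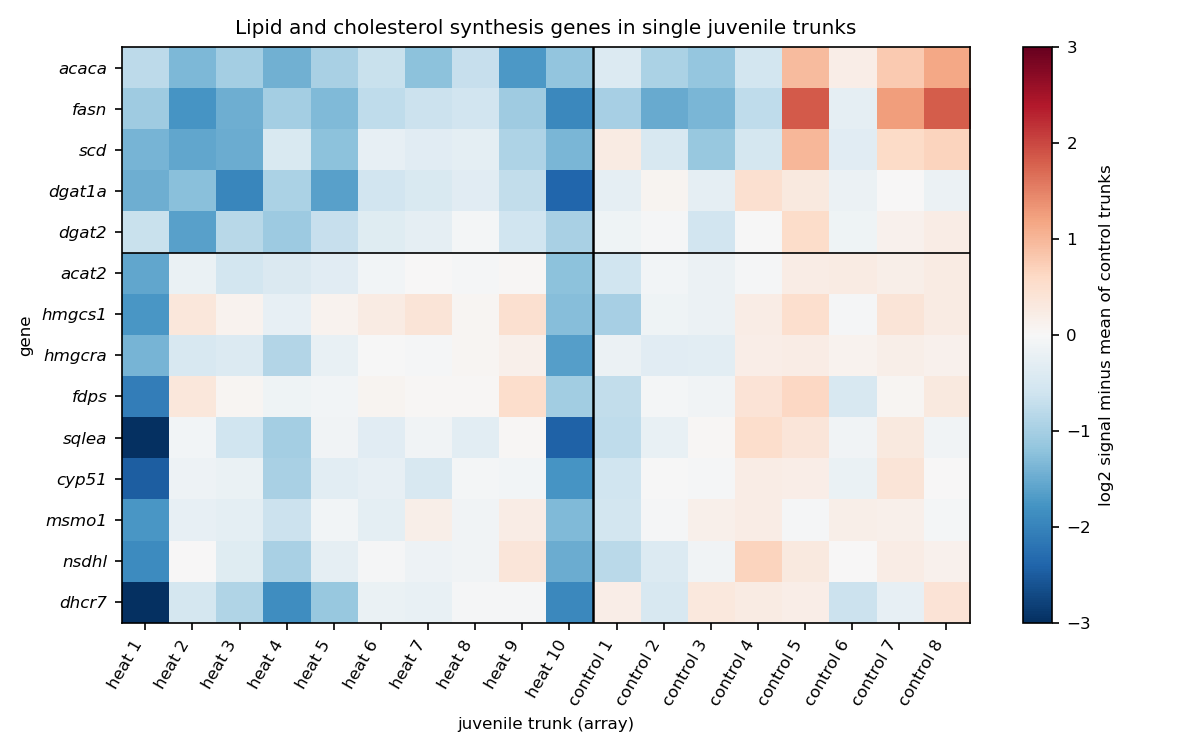
Each trunk (x axis, heat-exposed left, control right) by gene (y axis; fatty acid and triglyceride enzymes above the line, sterol genes below), coloured by log2 signal minus the mean of the control trunks. Heat-exposed trunks 1 and 10 are blue through the whole sterol block, and control trunks 5, 7 and 8 are red in acaca, fasn and scd.

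The likeness of the enzymes from fish to fish was described across the 18 trunks, and much of it rested on the arrays singled out above. Those arrays were picked for extreme values in the same genes, so a weaker likeness without them was largely built in. Group means were subtracted and 15745 rows with a gene symbol were ranked by Pearson correlation, as a description over arrays that share amplification and tissue makeup. The 5 rows most like hmgcs1 were all sterol pathway genes: sqlea (r = 0.949), the thiolase acat2 (0.948), farnesyl diphosphate synthase fdps (0.945), the sterol dehydrogenase nsdhl (0.945) and cyp51 (0.941). Hmgcra ranked 27 (r = 0.857) and dhcr7 ranked 124 (r = 0.773). Fasn ranked 2851 for hmgcs1 (r = 0.391).

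The rows most like fasn were hibadhb (r = 0.891), a dehydrogenase of valine breakdown, acaca (0.880), lrit3a (0.878), tlk2 (0.866) and lipt2 (0.842), an enzyme of lipoate attachment. Scd ranked 14 (r = 0.810). The likeness of fasn and acaca leaned on single arrays: without control trunks 5, 7 and 8 acaca ranked 1008 for fasn (r = 0.575, n = 15). Scd, dgat1a and dgat2 were then nearer to fasn than acaca was (r = 0.693, 0.685 and 0.676), and hmgcra was about as near (0.579). Without heat-exposed trunks 1 and 10 the rows closest to hmgcs1 were nsdhl (0.856), sqlea (0.854), fdps (0.845), rps3a (0.842) and ccdc43 (0.837), of which the last pair are no sterol genes (n = 16). Cyp51 ranked 24 (0.783) and hmgcra 363 (0.603), while dhcr7, at rank 2821 (0.301), was then less like hmgcs1 than fasn was, at rank 498 (0.569).

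**Figure D4:**
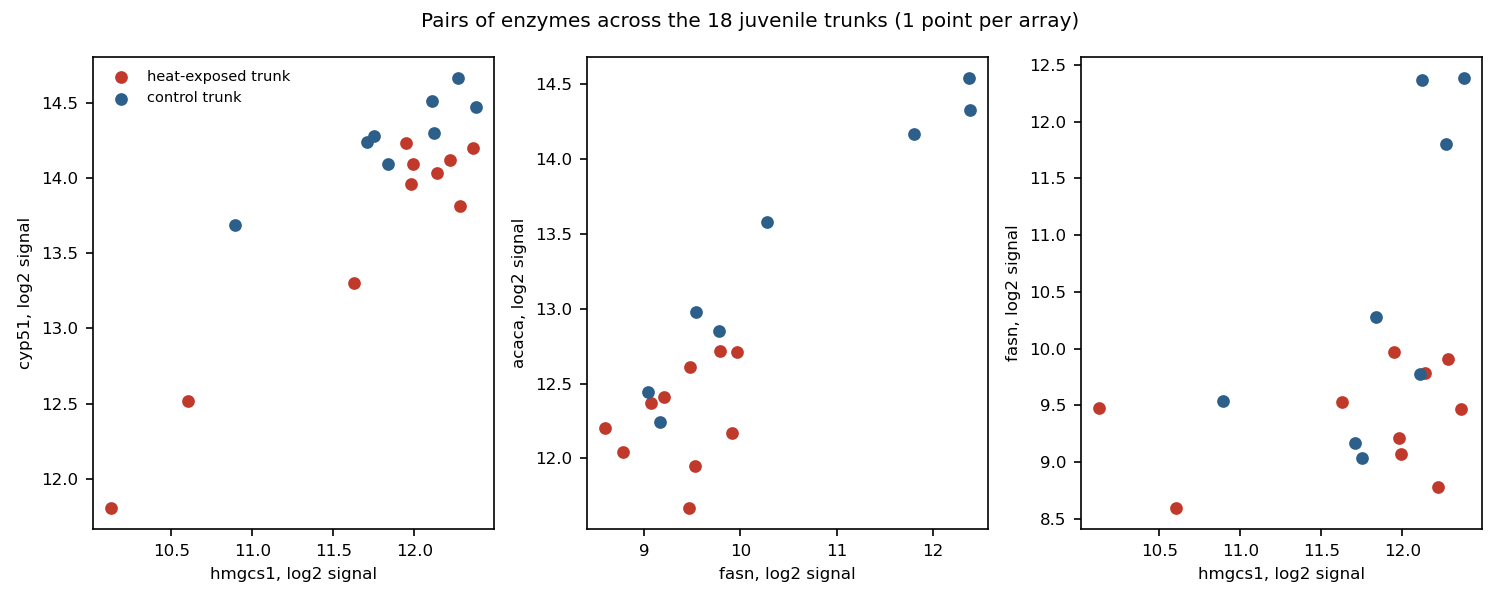
Log2 signals of hmgcs1 and cyp51, fasn and acaca, and hmgcs1 and fasn (x and y axes) in the 10 heat-exposed trunks (red) and the 8 control trunks (blue), 1 point per array. The first pair lies along a line that 2 heat-exposed trunks extend downward, the second is extended upward by control trunks 5, 7 and 8, and the last pair forms no such line (r = 0.391 after group means were subtracted).

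Around the 9 enzymes, 138 further genes of lipid synthesis and handling were measured, of which 15 fell and 4 rose after heat in trunks. The counts below stand against 5.96% of all rows lower and 8.59% higher, and a count such as 1 of 22 or 3 of 39 is near that share or under it. In the supply and elongation of fatty acids, 7 of 39 fell and 2 rose, with a median of -0.10. Thrsp, a protein tied to lipid synthesis in mammals, fell by 2.64 (limma adjusted p = 0.00133), and aclya, which supplies cytosolic acetyl-CoA, fell by 0.91 (adjusted p = 0.000578). The chain-lengthening genes elovl6l (-0.77) and elovl6 (-0.75) and the acyl-CoA synthetase acsl5 (-0.65) fell too, while elovl4a rose by 1.53. In triglyceride and phospholipid synthesis and lipid droplets 4 of 38 fell and none rose (median -0.17): gpat2, an acyltransferase of the first step, by 2.59, the droplet coat gene plin6 by 1.02, and agpat2 and gpat3 by 0.36 each.

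In the mevalonate and sterol steps 1 of 22 fell and 1 rose, with a median of -0.38. The kinase pmvk fell by 1.15 and ch25h, which makes an oxysterol, rose by 1.30. In sterol regulation, uptake and esterification 3 of 39 fell and 1 rose (median -0.03). The lipoprotein receptor scarb1 fell most, by 1.52 (limma adjusted p = 4.34e-05), abcg5 and ldlrap1a fell by 0.65 and 0.70, and ldlrap1b rose by 0.88. The regulators did not pass in RNA: the differences were -0.01 for srebf1, -0.02 for srebf2 and 0.01 for the sterol sensor partner insig1 (95% interval -0.41 to 0.43). Srebf1 had low means, 6.56 after heat and 6.57 in controls, and their distance from array background was not tested. SREBP protein was not measured. The receptor gene ldlra did not pass either, with a difference of -0.31 (95% interval -0.55 to -0.06, limma adjusted p = 0.0829). The lists were drawn up with earlier results of these data known.

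Related genes of 4 of the enzymes, not all of them duplicates, did not pass the test in trunks. Zebrafish carry acacb beside acaca, scdb beside scd, dgat1b beside dgat1a and hmgcrb beside hmgcra. The differences were -0.09 for acacb, 0.46 for scdb (limma adjusted p = 0.368), -0.38 for dgat1b (adjusted p = 0.0532) and -0.11 for hmgcrb. The difference between an enzyme and its related gene was not tested. Of these genes scdb was named by a rule and the other 3 after their values were seen.

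In adult testes no enzyme passed the test of heat. Of the 9 enzymes 0 passed, and 0 had an unadjusted p under 0.05, where limma called 0.0635% of all rows (20 rows, and 3672 at an unadjusted p under 0.05). The largest difference was in dgat2, with a lowest, median and highest value of 7.75, 8.49 and 9.70 in heat-exposed testes. Control testes had 8.05, 9.23 and 11.17, so the groups overlapped over most of their range. The difference was -0.79 (SE 0.39, 95% interval -1.60 to 0.02, limma adjusted p = 0.445).

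The other enzymes lay closer together in testes. Cyp51 differed by -0.35 (95% interval -0.84 to 0.14) and fasn by -0.24 (-0.53 to 0.06). For acaca the interval was -0.22 to 0.33 and for hmgcs1 -0.28 to 0.29, around differences of 0.06 and 0.01. The interval was widest for hmgcra, -1.03 to 1.16, since its SD was 1.22 in heat-exposed testes and 1.30 in controls. Of the 138 pathway genes 0 passed in testes and 15 had an unadjusted p under 0.05, insig1 among them with -0.43 (limma adjusted p = 0.348).

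In the 20 testes the rows most like fasn were ccl19b (r = 0.776), bsnd, slc39a10, ralbb and iqcc, and acaca ranked 2164 (r = 0.300). The rows most like hmgcs1 were ftr53 (r = 0.769), hes2.2, col28a1a, mark2a and myoz2b, and cyp51 ranked 6841 (r = 0.052). None of these 10 rows is in the lipid lists, and hmgcs1 itself spanned only 6.73 to 7.85 over all testes.

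Between the gonads of control adults, 3 of the 9 enzymes found by name were higher in testis and none lower. Sqlea, found under an older name and outside the 9, was lower in testis by 1.64 (limma adjusted p = 5.78e-05). The 3 higher ones were dgat2, dgat1a and cyp51, where 29.6% of all rows were higher in testis and 30.8% lower, 60.3% in either direction. Dgat2 had a lowest, median and highest value of 8.05, 9.23 and 11.17 in the 10 testes, against 5.13, 6.95, 6.52 and 6.30 in the 4 ovaries. Every testis lay above every ovary, and 40.4% of all rows had no overlap between the gonads in either direction. The difference was 3.27, or 9.62-fold (SE 0.55, limma adjusted p = 9.13e-05).

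Dgat1a, the other triglyceride enzyme, had values of 7.44, 9.05 and 11.11 in testes and 5.72, 4.8, 8.29 and 6.37 in ovaries. Ovary 3 reached into the range of the testes. The difference was 2.82 (SE 0.63, limma adjusted p = 0.00105). Cyp51 had 10.45, 10.98 and 11.44 in testes and 8.77, 9.73, 8.83 and 9.43 in ovaries, with no overlap and a difference of 1.74 (SE 0.23, adjusted p = 7.79e-06).

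The other 6 enzymes did not pass. Their intervals were narrow for hmgcs1 (-0.39 to 0.24) and fasn (-0.55 to 0.23) and wide for hmgcra (-1.07 to 1.61). How far low gonad signals, such as those of hmgcs1, scd and dgat2 in ovaries, lay above array background was not tested. A narrow interval at such a signal need not mean equal expression. Acaca was nearest to the threshold, with a difference of 0.41 and an adjusted p of 0.0788.

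Many markers of tissues around the gonad also differed between testis and ovary samples, where 29.6% of all rows were higher in testis and 30.8% lower. Of 27 liver markers 15 were higher in testis and 1 lower, with a log2 summed signal of 14.45 to 17.61 in testes and 13.10 to 14.87 in ovaries. Of 13 adipose markers 6 were higher and 2 lower, with 14.53 to 15.81 in testes and 12.004 to 13.80 in ovaries. Taken in either direction, the liver and adipose calls were both near the share of all rows, 60.3%. Of 19 skeletal muscle markers 15 were higher and 0 lower, with 13.88 to 17.04 in testes and 12.72 to 12.91 in ovaries. Intestine (9 of 20 higher, 1 lower), neural (16 of 26 higher, 4 lower) and leukocyte markers (11 of 20 higher, 1 lower) leaned the same way. In either direction the leukocyte calls were also near the share of all rows and the intestine calls under it. Only the skeletal muscle and neural calls were above it. The liver protein gene fabp10a averaged 13.02 ± 1.12 in testes (SD, n = 10) and 10.49 ± 1.30 in ovaries (SD, n = 4). The fat cell gene plin1 averaged 8.95 ± 0.96 in testes and 8.38 ± 0.82 in ovaries and did not pass (difference 0.57, limma adjusted p = 0.34). Both triglyceride enzymes act in liver and fat, and the part of these or the other tissues in their difference was not tested.

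For acaca, scd and hmgcra, which did not pass between the gonads, the related gene did, where 60.3% of all rows passed in either direction. Of the related genes only scdb was named by a rule, and the others were picked after their values were seen. Scdb was 8.49 ± 0.53 in testes (SD, n = 10) and 5.11 ± 0.62 in ovaries (SD, n = 4), a difference of 3.39 (limma adjusted p = 1.3e-07), while scd differed by -0.44. Acacb was 13.52 ± 0.25 in testes and 10.75 ± 0.22 in ovaries, a difference of 2.77 (adjusted p = 1.17e-09). The copy dgat1b ran against dgat1a: it was 7.97 ± 0.44 in testes and 9.89 ± 0.51 in ovaries, a difference of -1.91 (adjusted p = 1.17e-05). Hmgcrb was lower in testis by 0.71 (adjusted p = 0.00251), with 12.47 to 12.63 in the 4 ovaries. Copies of near-identical sequence may share hybridization, and which probes stand behind a row was not examined here.

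**Figure D5:**
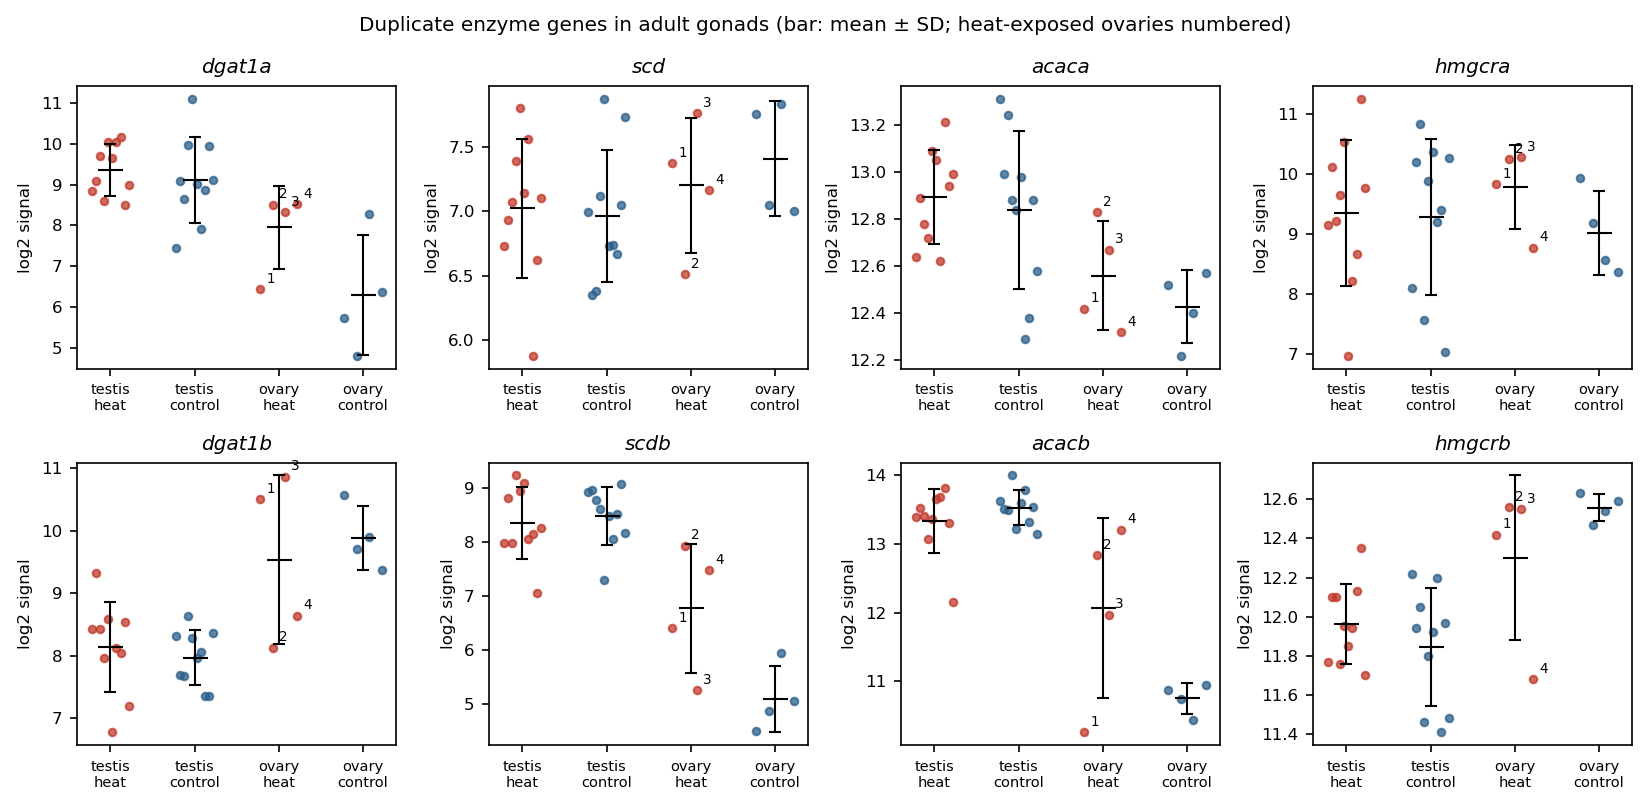
Log2 signal (y axis, own scale per gene) of 4 enzymes (top) and their related genes (bottom) on single adult arrays, with heat-exposed groups (red) left of controls (blue), bars for the mean ± SD, and heat-exposed ovaries numbered. Control testes lie above control ovaries in scdb and acacb and below them in dgat1b, while scd and hmgcra overlap.

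More of the surrounding pathway was lower in testis than higher. Of the 138 genes 64 were lower and 37 higher, where 30.8% of all rows were lower and 29.6% higher. The genes named below are examples from lists in which, as over all rows, many differed. Among the mevalonate and sterol genes 10 of 22 were lower and 6 higher: ggps1 (-3.70), mvk (-2.80), nsdhl (-2.24), acat1 (-1.69) and lbr (-1.66) were lower and tm7sf2 (3.5) higher, and the squalene epoxidase row, outside that count, was lower by 1.64. In fatty acid supply and elongation 22 of 39 were lower, led by elovl7b (-6.24), elovl5 (-3.41) and elovl6l (-3.39), and 10 higher, led by thrsp (3.92), me1 (3.55), which supplies NADPH, and elovl4a (3.49).

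In triglyceride and droplet genes 14 of 38 were lower, such as the droplet coat gene plin2 (-5.76), cdipt (-3.05) and mogat2 (-2.54), and 11 higher, such as gpat3 (3.52), agpat9l (3.1) and the lipase gene lipeb (2.79). In sterol regulation and uptake 18 of 39 were lower, among them scarb1 (-3.46), mylipa (-3.45), mbtps2 (-2.74) and prkaa1 (-2.61), and 10 higher. The steroidogenic cholesterol carrier star was higher in testis by 4.40 and pparab by 4.05. Srebf2 (-1.98), srebf1 (-0.96) and insig1 (-1.46) were lower in testis and ldlra (1.02) higher, all past the threshold.

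In adult ovaries no enzyme passed the test of heat either. Limma called 0.0% of all rows there. No row passed, the lowest adjusted p was 0.106, and 3334 rows had an unadjusted p under 0.05. Of the 9 enzymes 0 had an unadjusted p under 0.05. With all 46 arrays in 1 model, which shares 1 estimate of the spread, 4869 of all rows passed. Of the 9 enzymes only dgat1a was among them (limma adjusted p = 0.0423), so passing in that fit was not particular to dgat1a. Only 4 arrays a group limit the precision: the 95% interval was -0.10 to 3.42 for dgat1a and -0.24 to 2.90 for dgat2.

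The 3 enzymes that differ between testis and ovary were the ones with the largest means above control. Both differences were taken against the same 4 control ovaries, so low control values raise both and the match is partly built in. Dgat1a was 6.44, 8.51, 8.33 and 8.53 in heat-exposed ovaries 1 to 4, against 5.72, 4.8, 8.29 and 6.37 in control ovaries. Dgat2 was 6.73, 7.88, 6.27 and 9.36 in heat-exposed ovaries, against 5.13, 6.95, 6.52 and 6.30 in controls. Cyp51 was 9.16, 10.30, 9.40 and 11.46 in heat-exposed ovaries, against 8.77, 9.73, 8.83 and 9.43 in controls.

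The groups overlapped in each, and the differences were 1.66 for dgat1a, 1.33 for dgat2 (limma adjusted p = 0.434 for both) and 0.89 for cyp51 (adjusted p = 0.439). The hmgcra difference was 0.77, and fasn differed by -0.45. Without heat-exposed ovaries 2 and 4, the arrays with testis markers, the differences were 1.09 for dgat1a, 0.27 for dgat2 and 0.09 for cyp51, none past the threshold. With all 4 heat-exposed ovaries, liver markers had a median difference of 1.04, with 4 of 27 below 0. Adipose markers had a median of 0.40, with 3 of 13 below 0, and 0 rows of either list passed. The part of such tissue in the ovary values was not tested.

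On a scale where the control ovary mean is 0 and the control testis mean is 100, heat-exposed ovaries 2 and 4 stood at 78.7 and 79.5 for dgat1a, 50.6 and 95.9 for dgat2 and 63.7 and 130.5 for cyp51. Ovaries 1 and 3 stood at 5.2 and 72.2 for dgat1a, 15.4 and 1.3 for dgat2 and -1.7 and 11.8 for cyp51. Ovary 3 thus had a dgat1a level near that of ovaries 2 and 4, while its dgat2 and its testis germ cell list mean, 9.23, were at the level of control ovaries; a control ovary also reached 8.29 in dgat1a. Among pathway genes that differed between the gonads, both ovaries 2 and 4 had higher places on this scale than both ovaries 1 and 3 in 87 of 101 (86.1%). The share was 77.8% of all rows that differed, and places past 100, beyond the testis mean, were counted too. For insig1 the places were -19.7, 139.4, -31.6 and 121.6 in ovaries 1 to 4, and for srebf2 -1.3, 77.5, -26.6 and 69.6. The 4 ovaries were told apart by measured values, not by labels, and were not tested as groups.

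The heat difference itself was compared between ovary and testis in 1 fit of the 28 adult arrays. None of the 9 enzymes passed, against 1.21% of all rows, and 2 had an unadjusted p under 0.05. The contrast was 2.12 for dgat2 (95% interval 0.52 to 3.72, limma adjusted p = 0.125) and 1.24 for cyp51 (0.20 to 2.27, adjusted p = 0.157). Leaving out heat-exposed ovary 1 let dgat2 and cyp51 pass, together with 4817 of the 31475 rows, and leaving out heat-exposed ovary 3 let dgat2 pass, together with 4398 rows, against 380 rows with all arrays. Without ovaries 2 and 4 the contrast was 1.06 for dgat2 and 0.44 for cyp51.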

How the data were processed

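Trizol-extracted RNA was amplified over the whole transcriptome (NuGen Ovation) and hybridized with Cy3 to single-colour NimbleGen arrays, per the labels' protocols. The authors deposited log2 values made with RMA (background correction, quantile normalization and summary of probes), per the submitters' processing notes; its version is not given in the sources used here, and the log base was read from the range, 3.76 to 15.89. All 46 arrays and 31475 rows were used unfiltered. Each comparison was fitted on its own arrays with limma 3.58.1 (lmFit, eBayes; R 4.3.3), two-sided, with Benjamini-Hochberg adjustment over all rows, after a test on simulated data. Members and lists were chosen with earlier results of these data known. Of 358 list entries 311 were matched, 44 by an older name (RefSeq gene table, assembly GRCz12tu, names only). The text names all members, up to 6 called genes a list and comparison, srebf1, srebf2, insig1, ldlra, scdb, 8 defining markers and the 5 rows most like fasn and hmgcs1. The series' design text gives 10 juveniles a group, of which 8 control trunks were used here. Alternatives were array weights, 1 model of all arrays, a filter on low rows, repeated quantile normalization, a replicate block, marker covariates and arrays left out. Quantile normalization can hide a shift of most genes. No batch labels were given. No sequences are shown.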

Additional observations from a re-analysis of the deposited data

Results flagged for a closer look

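Of 54 sets of arrays (an enzyme in a group) 4 held a lone array far from the others by Dixon's test, which chance flags in about 1 of 20. These were dgat1a in heat-exposed ovary 1 (6.44), hmgcs1 in control trunk 1 (10.89), cyp51 in heat-exposed testis 4 (8.88) and dhcr7 in heat-exposed trunk 1 (6.88), each the lowest of its group.

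Dgat1a and dgat2 had heat differences of opposite sign in trunks and ovaries. Dgat1a had -1.18 in trunks and 1.66 in ovaries, and dgat2 had -0.71 in trunks and 1.33 in ovaries. Both were noted because the heat-exposed trunks and ovaries lay on opposite sides of their own control means. In testes, taken at the same age as ovaries, dgat1a differed by 0.25 and dgat2 by -0.79, neither past the threshold. The difference between trunks and ovaries was not tested, and the ovary values did not pass on their own.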

How the results depend on the processing

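The 4 calls in trunks became 0 with the oocyte or neural list mean as a covariate (171 and 738 rows in all), 1 without heat-exposed trunks 1, 2 and 10 (2863 rows) and 1 without control trunks 5, 7 and 8 (1354 rows); the neural covariate and the last setting were chosen after seeing the data. Leaving out 1 trunk gave 3 to 5 calls and 3293 to 4919 rows. Scd lost its call when heat-exposed trunk 1, 2, 3, 5 or 10 or control trunk 1, 5, 7 or 8 was left out. Differences that changed sign, all with limma adjusted p above the threshold, were fasn (0.28, oocyte covariate), hmgcra (0.17), cyp51 (0.08) and dhcr7 (0.13, all 3 neural covariate), and hmgcs1 (0.16, 0.69, 0.19 and 0.07 without trunks 1, 2 and 10, with the neural covariate, without trunks 1 and 10 and without control trunks 5, 7 and 8; -0.30 to 0.02 leaving out 1 trunk). In 1 model of all arrays fasn passed (adjusted p = 0.0116) and dgat2 did not (0.26). The cause was not tested.

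In testes the 20 rows became 54 with array weights or without the lowest rows, 102 in 1 model, 8 after repeated normalization and 1 to 57 leaving out 1 array, with 0 enzymes in each. Signs changed for hmgcra (-0.02, array weights) and hmgcs1 (-0.06 with array weights, -0.04 after repeated normalization), and over single arrays left out the ranges were -0.005 to 0.11 for acaca, -0.03 to 0.18 for scd, -0.18 to 0.33 for hmgcra, -0.06 to 0.07 for hmgcs1 and -0.21 to 0.09 for dhcr7. In ovaries the 0 rows became 4 (array weights), 4869 with 1 enzyme (1 model), 8 (without ovaries 2 and 4) and 0 to 5 leaving out 1 array. Without ovaries 2 and 4 scd was 0.16 and hmgcs1 0.11; leaving out 1 ovary gave -0.39 to 0.02 for scd, -0.12 to 0.03 for hmgcs1 and -0.40 to 0.03 for dhcr7. Between the gonads of controls 3 to 4 enzymes passed leaving out 1 array and 4 after repeated normalization (acaca, 0.46, adjusted p = 0.0476).

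For the heat difference of ovary against testis the 380 rows became 20 (array weights), 36 (without ovaries 2 and 4) and 48 to 4817, with 0 to 2 enzymes, leaving out 1 ovary. Signs changed for scd (0.10) and hmgcs1 (0.10) without ovaries 2 and 4 and for hmgcs1 with array weights (0.08); ranges leaving out 1 ovary were -0.01 to 0.16 for acaca, -0.35 to 0.05 for fasn, -0.13 to 0.02 for hmgcs1 and -0.34 to 0.09 for dhcr7. The labels count replicates within each group and name no pairs across groups. Arrays of the same number deviated together weakly at most (r from -0.082 to 0.152). In ovaries these correlations were all above 0 (0.024 to 0.148). Heat-exposed ovaries 1, 3 and 4 were each most like the control ovary of the same number, which the labels do not give as a pairing. With the replicate block scd did not pass in trunks (-0.88, adjusted p = 0.0616) and 3 rows passed in testes. The number of arrays limits the precision.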
